A study of Mus musculus with 13 samples.

Results

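The genes described here are 9 genes that mark hepatocytes around the central vein of the liver lobule or that respond to Wnt signalling, namely Cyp2e1, Cyp1a2, Glul, Oat, Tbx3, Lgr5, Axin2, Rnf43 and Znrf3. They were taken by gene symbol and make up 9 of the 27141 genes in the count and FPKM tables, and all 9 passed the filter on low counts. RNA was sequenced from dHeps, which are damaged hepatocytes obtained by collagenase perfusion of livers from mice labelled wild type, with carbon tetrachloride (CCl4) injury. The cells spent 16 days in a serum-free medium with the solvent DMSO, with a cocktail of 5 compounds (5C), or with 5C lacking 1 compound, and the comparisons ask which genes respond to 5C and which of its compounds each gene depends on. A hyphen and a letter name the compound left out: GSK429286A (5C-G), which inhibits ROCK, CID755673 (5C-C), which inhibits protein kinase D, ETC-1002 (5C-E), which activates AMPK, forskolin (5C-F), which activates adenylate cyclase, or Salidroside (5C-S), a glycoside from Rhodiola. Every group was sequenced as 2 libraries, called A and B, except 5C-S with 1. All groups therefore share the injury, the isolation and the culture, and no cell sort is described for them. The study's methods describe repeated CCl4 injections into young adult mice and call replicates separate biological ones, without naming the animal or culture behind each library.

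Liver lobules are zoned between the portal tract, where blood enters, and the central vein, where it leaves. Endothelial cells at the central vein release Wnt ligands and R-spondins, and the hepatocytes beside them respond through beta-catenin and TCF/LEF factors by expressing glutamine synthetase and enzymes of drug metabolism. The same signal switches on its own brakes, among them the scaffold Axin2 and the ubiquitin ligases Rnf43 and Znrf3, which remove Frizzled receptors from the cell surface unless R-spondin bound to an Lgr receptor holds the ligases back.

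The promoters of Cyp2e1 and Cyp1a2 are shown because these members differed most between the groups and both were called lower than in 5C in 3 removal groups. The sequences are the 250 bases before the start of each gene in RefSeq, read 5′ to 3′ along the gene, in build GRCm38.p6 (chr7:140763569-140763818, plus strand, for Cyp2e1 and chr9:57683656-57683905, minus strand, for Cyp1a2). Capitals mark a TCF/LEF motif, searched as CTTTGAT or CTTTGAA on both strands.
Cyp2e1: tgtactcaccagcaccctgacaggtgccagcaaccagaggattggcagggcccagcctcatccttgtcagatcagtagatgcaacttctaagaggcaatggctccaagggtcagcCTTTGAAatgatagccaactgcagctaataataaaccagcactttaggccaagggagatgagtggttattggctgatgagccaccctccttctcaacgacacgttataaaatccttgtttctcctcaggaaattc
Cyp1a2: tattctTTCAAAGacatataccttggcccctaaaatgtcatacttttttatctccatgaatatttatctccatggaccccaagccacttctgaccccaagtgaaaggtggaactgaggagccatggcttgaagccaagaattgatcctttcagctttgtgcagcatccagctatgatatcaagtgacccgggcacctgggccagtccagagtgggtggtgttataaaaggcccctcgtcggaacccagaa
In Cyp2e1 the match began 135 bases before the start and lay on the strand of the gene, and in Cyp1a2 it began 244 bases before the start and lay on the opposite strand. The reference table held promoters for 6 members in 7 windows, because Rnf43 has a pair of starts, and these were the only 2 windows of the 7 with a TCF/LEF match, against 7.48% of the 32851 windows of all genes. The aryl hydrocarbon receptor core GCGTG was found on the gene's strand in 1 Rnf43 window, 71 bases before the start, and in 28.2% of all windows. No member window held the HNF1 core GTTAAT, found in 6.43% of all windows, or the cAMP response element TGACGTCA, found in 1.55%. These are matches of letters in a short window and say nothing about binding.

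Library totals ran from 30195867 to 45491932 counts. Values are FPKM, which is the count scaled to gene length and to the library's total, and counts behind a member ranged from 14 (Lgr5 in 5C-F A) to 12874 (Oat in 5C-C B). Summed over 10 hepatocyte markers, FPKM was 15539 to 16876 in DMSO, 16117 to 16193 in 5C, 9316 to 10870 in 5C-G, 9419 to 10731 in 5C-C, 6231 to 7097 in 5C-E, 23734 to 28747 in 5C-F and 11948 in 5C-S, and none of the 10 lay at the floor of 3 counts in any group. Over 7 endothelial markers the sum was 3.53 to 23.4 in all libraries and highest in 5C-E (22.1 to 23.4). Pecam1 and Cdh5 were at or under 3 counts in both libraries of 5C and of 5C-F. Over 8 macrophage markers it was 2275 to 2305 in DMSO, 266 to 283 in 5C and 2673 to 4202 in 5C-G, and ran from 346 to 1100 in the other 4 groups. A fit on GC content and gene length explained between 0.00119 and 0.305 (r squared) of a library's deviations from the mean over genes, and an offset for this fit is among the alternatives. Over 8 stellate cell and fibroblast markers the sums were lowest in 5C-F (744 to 800) and highest in 5C-E (1555 to 1719). Over 6 cholangiocyte markers they were lowest in 5C-S (1456) and highest in 5C-F (3166 to 3423). The part of other cell types in the members' values was not tested. In bulk RNA, fewer cells of a type and less RNA per cell cannot be told apart.

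**Figure D1:**
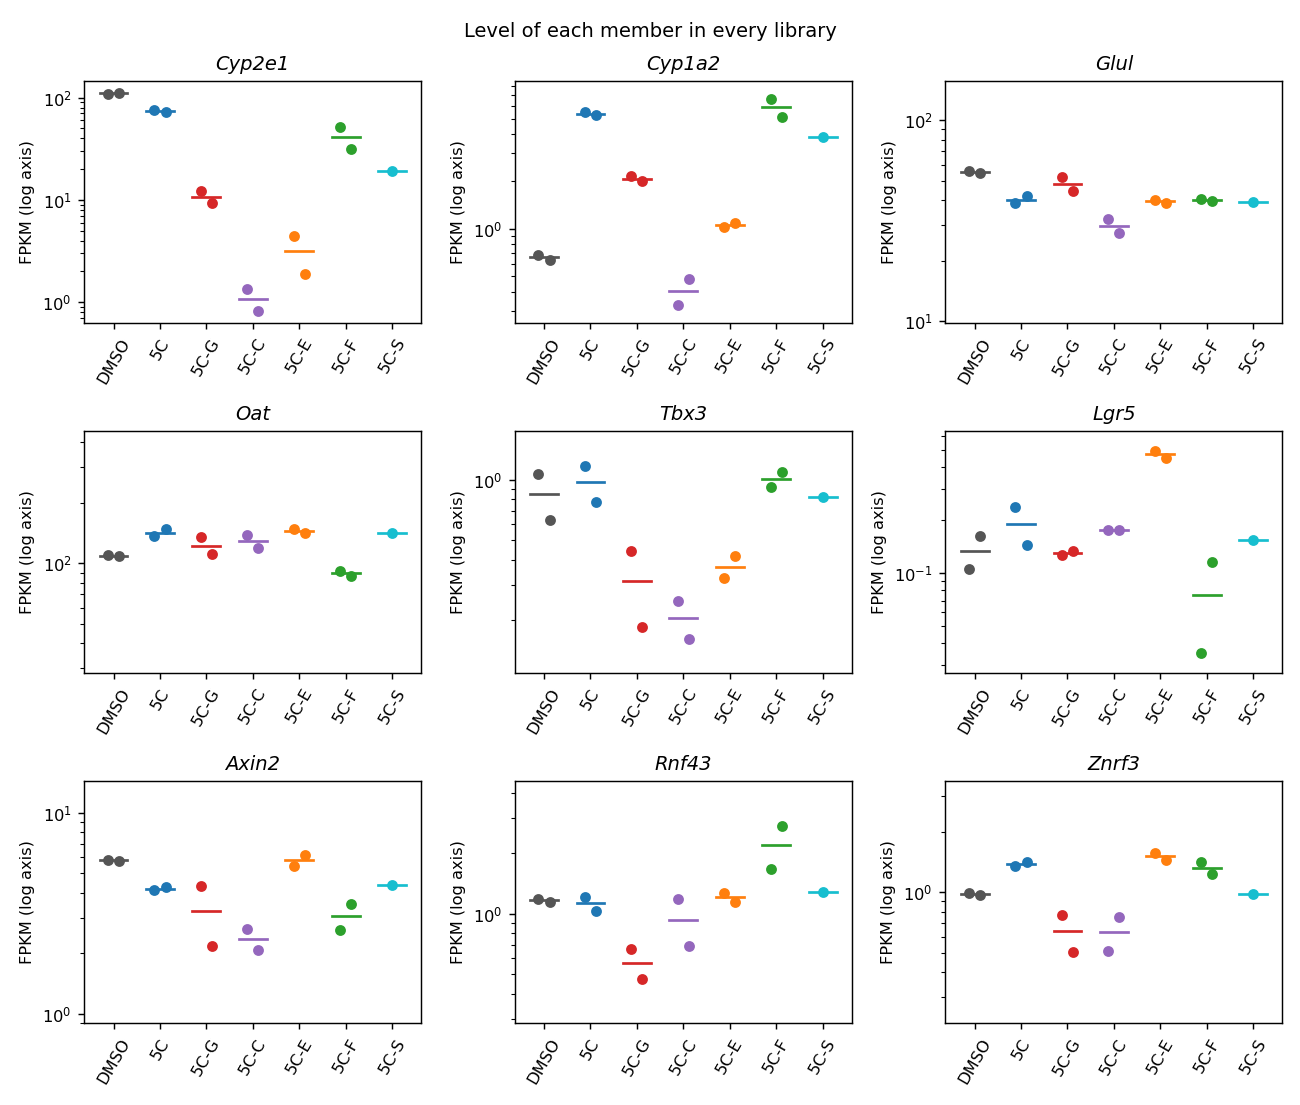
Level of each member in every library, in FPKM on a log axis, with groups on the horizontal axis, points for libraries and bars for group means. Cyp2e1 spans from 111.7 FPKM in DMSO B to 0.813 in 5C-C B, whereas Glul and Oat stay within a factor of 1.87 and 1.63 between the highest and lowest group means.

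A member was called where the Benjamini-Hochberg adjusted p of edgeR's quasi-likelihood test, taken over all 19884 genes tested, was under 0.05 and the log2 fold change was beyond 1. In 5C against DMSO, 1 of 9 members was called, Cyp1a2, which was higher in 5C, where 4.55% of all genes were called and 1.66% were called higher. In 5C-G against 5C, 4 members were called, all lower in 5C-G, where 13.1% of all genes were called and 5.64% were called lower. These were Cyp2e1, Cyp1a2, Tbx3 and Znrf3. In 5C-C against 5C, 3 members were called, all lower in 5C-C, where 20.2% of all genes were called and 10.5% were called lower, and they were Cyp2e1, Cyp1a2 and Tbx3. Leaving out ETC-1002 gave 2 called members, Cyp2e1 and Cyp1a2, both lower in 5C-E than in 5C, where 1.96% of all genes were called and 1.31% were called lower. Leaving out forskolin gave 1, Rnf43, which was higher in 5C-F than in 5C, where 4.84% of all genes were called and 2.69% were called higher. The 5 comparisons share the 5C libraries, so a value of 5C that lies high or low moves all of them. Over the 6 groups with 2 libraries, each of the 9 members had an edgeR adjusted p under 0.05 for any difference between groups, from 4.38e-09 for Cyp2e1 to 0.0267 for Oat, and so did 45.6% of all genes.

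**Figure D2:**
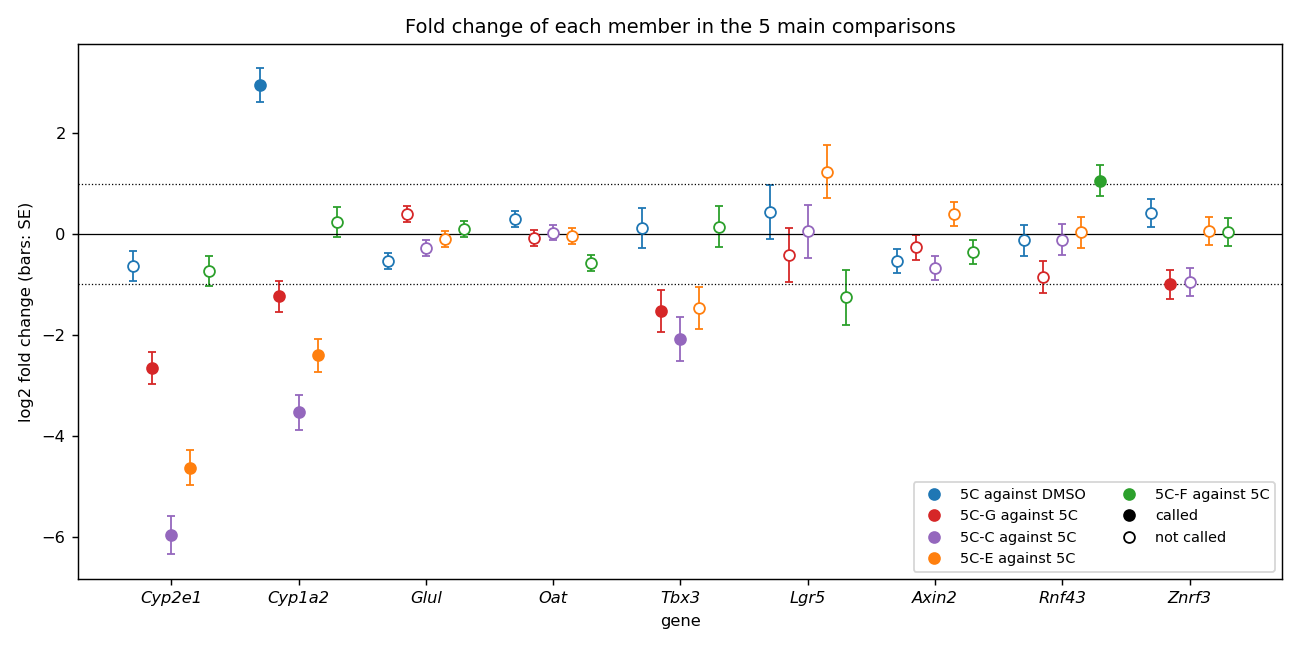
Log2 fold change of each member in 5C against DMSO and in 4 removals against 5C, from edgeR, with bars for the SE, filled points for called values and open points for others, where dotted lines mark a log2 fold change of 1 in either direction. The lowest point is Cyp2e1 in 5C-C against 5C at -5.97, and the highest is Cyp1a2 in 5C against DMSO at 2.95.

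Cyp2e1 (ENSMUSG00000025479, GRCm39 chr7:140343652-140355167) encodes a cytochrome P450 that oxidises ethanol and small solvents and is the enzyme that makes CCl4 toxic to hepatocytes. Its FPKM was 108.1 and 111.7 in the DMSO libraries, 75.5 and 73.1 in 5C, 51.6 and 31.5 in 5C-F and 19.3 in 5C-S. It was 12.2 and 9.26 in 5C-G, 4.39 and 1.87 in 5C-E and 1.33 and 0.813 in 5C-C. No groups with 2 libraries overlapped, and the mean of DMSO was 102-fold above that of 5C-C. Relative to 5C, Cyp2e1 fell by 5.97 ± 0.38 on the log2 scale (SE, edgeR adjusted p = 6.63e-08) without CID755673. It fell by 4.63 ± 0.35 (edgeR adjusted p = 1.44e-06) without ETC-1002 and by 2.67 ± 0.32 (edgeR adjusted p = 1.79e-05) without GSK429286A. Each of these calls held in all 13 alternative settings. Neither 5C against DMSO (-0.64 ± 0.30, edgeR adjusted p = 0.277) nor 5C-F against 5C (-0.73 ± 0.30, edgeR adjusted p = 0.126) was called. In the order of levels, the steps from DMSO to 5C and from 5C to 5C-F were therefore not called, although 5C-F against DMSO was, whereas 5C-F, then 5C-G, then 5C-E and last 5C-C each differed from the next, with log2 differences of 1.94, 1.97 and 1.34 and edgeR adjusted p of 0.000364, 0.000505 and 0.00805. The last of these steps had an adjusted p of 0.0632 when only the 5C-C and 5C-E libraries entered the fit.

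Cyp1a2 (ENSMUSG00000032310, GRCm39 chr9:57584196-57590986) encodes the P450 that clears caffeine, and besides its pericentral place it is a known target of the aryl hydrocarbon receptor. Its FPKM was 0.679 and 0.637 in DMSO, 5.48 and 5.26 in 5C, 6.65 and 5.14 in 5C-F and 3.84 in 5C-S. It was 2.15 and 2.00 in 5C-G, 1.02 and 1.10 in 5C-E and 0.328 and 0.479 in 5C-C. The 5C and 5C-F libraries overlapped and lay above all others, and 5C-C was the only group below DMSO. In 5C it rose 7.72-fold over DMSO, which is 2.95 ± 0.34 on the log2 scale (edgeR adjusted p = 1.23e-05), at 40 and 50 counts in the DMSO libraries. Relative to 5C it fell by 3.54 ± 0.35 in 5C-C (edgeR adjusted p = 5.68e-06), by 2.41 ± 0.33 in 5C-E (edgeR adjusted p = 0.000274) and by 1.24 ± 0.31 in 5C-G (edgeR adjusted p = 0.00761). Without 5C library A, the 5C-G value was -1.23 with an edgeR adjusted p of 0.0527. Between the neighbours 5C-E, DMSO and 5C-C no difference was called (edgeR adjusted p = 0.471 and 0.202), but with the GC and length offset 5C-C was called below DMSO (-1.11, edgeR adjusted p = 0.019).

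The 2 P450 genes thus stood in different proportions in DMSO and in 5C. The FPKM of Cyp2e1 was 159.2 and 175.3 times that of Cyp1a2 in the DMSO libraries, 13.8 and 13.9 times in 5C and 1.70 to 7.77 times in the libraries lacking a compound. Every removal library lay below both 5C libraries, and both lay below DMSO. Between removals, Cyp2e1 and Cyp1a2 were called in all 6 pairs of removals with 2 libraries, with levels ordered from 5C-F down through 5C-G and 5C-E to 5C-C for both genes. For Cyp1a2 the smaller of these steps did not hold in every fit. The step of 5C-G against 5C-E (log2 1.17, edgeR adjusted p = 0.0169) gave 0.70 with the GC and length offset and an adjusted p of 0.14, and an adjusted p of 0.0675 with only those groups in the fit. Likewise 5C-C against 5C-E (-1.13, edgeR adjusted p = 0.0201) had an adjusted p of 0.179 with only those groups in the fit.

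Levels were also set against the 10 hepatocyte markers, since those moved with the removals too. Alb and Trf carry most of the marker sum, with 9437 and 4169 of 16193 FPKM in 5C A. In the 5C-C libraries Alb was at 3433 and 2553 FPKM and Trf at 4834 and 4017. Per 1000 FPKM of markers, Cyp2e1 stood at 4.66 and 4.53 in 5C, 1.31 and 0.852 in 5C-G, 0.618 and 0.301 in 5C-E and 0.124 and 0.0863 in 5C-C. On that scale the log2 difference from 5C was -5.45 in 5C-C, -3.32 in 5C-E, -2.09 in 5C-G and -1.56 in 5C-F, with no overlap between libraries. For Cyp1a2 it was -0.57 in 5C-F, -0.68 in 5C-G, -1.05 in 5C-E and -3.03 in 5C-C, again with no overlap, and 3.03 in 5C against DMSO. The 5C-F value has the opposite sign to the unscaled one (0.24), and 5C-F is the group with the highest marker sum. For Tbx3 it was -1.57 in 5C-C and -0.90 in 5C-G but -0.10 in 5C-E, where the libraries overlapped with 5C. In 5C-E, where the marker sum was lowest, the other 6 members stood above 5C on this scale, with no overlap. The values were 1.26 for Glul, 1.32 for Oat, 1.38 for Rnf43, 1.40 for Znrf3, 1.76 for Axin2 and 2.59 for Lgr5. A gene of unchanged FPKM would also stand above 5C there. Unscaled, edgeR gave -0.10 for Glul, -0.03 for Oat, 0.03 for Rnf43, 0.05 for Znrf3, 0.40 for Axin2 and 1.24 for Lgr5, none called. In 5C-F all members except Rnf43 (0.31, overlapping) were below 5C, from -1.96 for Lgr5 to -0.57 for Cyp1a2. The marker sum was highest there, so a gene of unchanged FPKM would also stand below 5C. No test was run on these ratios, and the part of the hepatocyte markers in the tested differences was not tested.

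**Figure D3:**
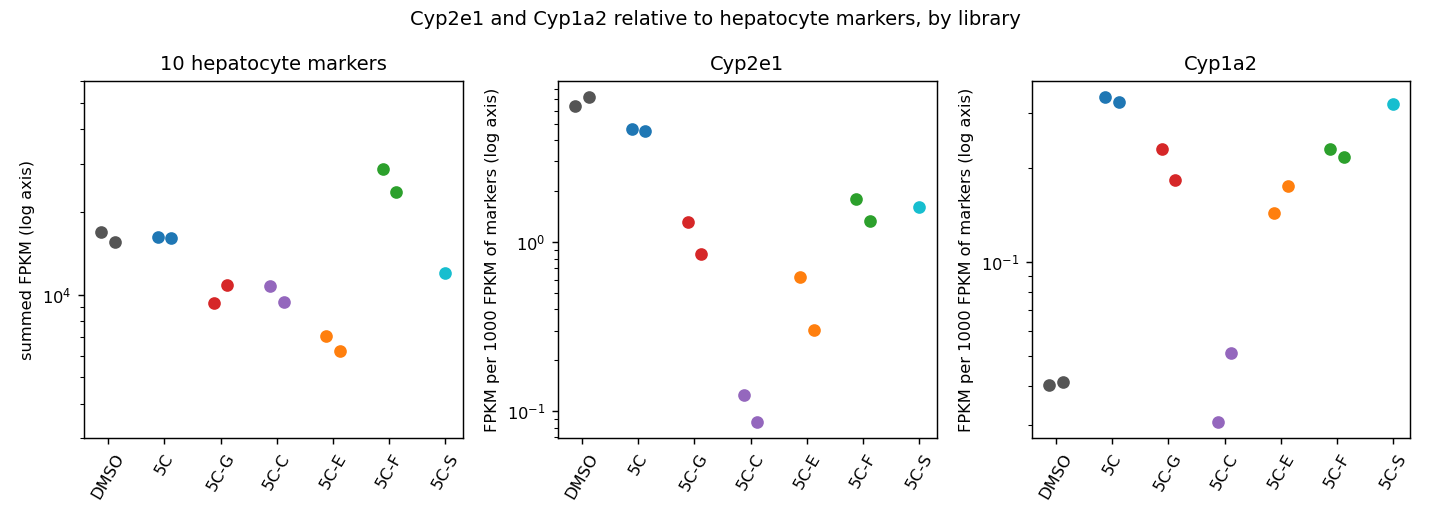
Summed FPKM of 10 hepatocyte markers (left) and FPKM of Cyp2e1 and Cyp1a2 per 1000 FPKM of those markers, by library, on log axes with groups on the horizontal axis. Cyp2e1 runs from 7.19 in DMSO B to 0.0863 in 5C-C B on this scale, while the marker sum runs from 6231 to 28747.

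Glul and Oat are enzymes of the hepatocytes nearest the central vein. Glul (ENSMUSG00000026473, GRCm39 chr1:153775690-153785469), glutamine synthetase, captures the ammonia that escapes urea synthesis. Its FPKM was 56.2 and 54.9 in DMSO, 52.2 and 44.2 in 5C-G, 38.6 and 41.7 in 5C and 32.2 and 27.3 in 5C-C. The libraries of 5C-E (40.0 and 38.9), 5C-F (40.4 and 39.8) and 5C-S (39.3) lay with those of 5C. DMSO lay above and 5C-C below all other libraries, but no comparison reached a log2 fold change of 1. In 5C against DMSO the value was -0.54 ± 0.16 (edgeR adjusted p = 0.0484), past the p threshold only, and in 5C-C, 5C-E and 5C-F against 5C it lay between -0.27 and 0.10 (edgeR adjusted p of 0.193 or more). In 5C-G against 5C it was 0.39 ± 0.16 (edgeR adjusted p = 0.0766), with both 5C-G libraries above those of 5C. The largest value against DMSO was -0.81 ± 0.16 in 5C-C (edgeR adjusted p = 0.000689).

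Oat (ENSMUSG00000030934, GRCm39 chr7:132159153-132191517), ornithine aminotransferase, feeds glutamate to glutamine synthesis. Its FPKM was 109.9 and 108.8 in DMSO, 136.2 and 147.5 in 5C, 134.6 and 110.7 in 5C-G, 138.6 and 119.7 in 5C-C, 148.7 and 142.3 in 5C-E and 141.1 in 5C-S. It was 91.3 and 86.9 in 5C-F, below every other library. In 5C-F against 5C the log2 value was -0.57 ± 0.16 (edgeR adjusted p = 0.0278), under the fold threshold, and in the other 4 main comparisons it lay between -0.08 and 0.30 and none passed. Within the same libraries in which Cyp2e1 differed 62.9-fold between 5C and 5C-C, the Oat log2 fold change was 0.03 ± 0.16.

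Tbx3 (ENSMUSG00000018604, GRCm39 chr5:119806298-119822797) is a T-box transcription factor and a beta-catenin target of pericentral hepatocytes. Its FPKM was 1.07 and 0.630 in DMSO, 1.17 and 0.772 in 5C, 0.924 and 1.09 in 5C-F and 0.823 in 5C-S. It was 0.441 and 0.186 in 5C-G, 0.249 and 0.162 in 5C-C and 0.323 and 0.416 in 5C-E. DMSO, 5C and 5C-F overlapped, with the 5C-S library below 5C-F and inside the range of DMSO and of 5C, and all of them lay above 5C-G, 5C-C and 5C-E. Among these last, 5C-G overlapped with both others, and 5C-C lay below 5C-E. Relative to 5C, Tbx3 fell by 2.09 ± 0.43 in 5C-C (edgeR adjusted p = 0.00127) and by 1.53 ± 0.42 in 5C-G (edgeR adjusted p = 0.0127). In 5C-E the value was -1.46 ± 0.42 with an edgeR adjusted p of 0.0729, which passed in 5 of 13 alternatives, among them the GC and length offset (-1.68, edgeR adjusted p = 0.021). The 5C-G call was lost without 5C library A (-1.22, edgeR adjusted p = 0.126) and without 5C-G library B (-1.09, edgeR adjusted p = 0.159), and with limma on log2(FPKM + 1) the 5C-C and 5C-G values were -0.70 and -0.59, under the fold threshold. Against 5C-F, Tbx3 was lower in 5C-C (-2.23), in 5C-G (-1.68) and in 5C-E (-1.61), with edgeR adjusted p from 0.00176 to 0.0133, and these calls held in both alternative fits.

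Lgr5 (ENSMUSG00000020140, GRCm39 chr10:115286216-115423685) is an R-spondin receptor that marks Wnt-responsive cells next to the central vein. It was at 0.107 and 0.163 FPKM in DMSO, 0.238 and 0.146 in 5C, 0.127 and 0.133 in 5C-G, 0.177 in both 5C-C libraries and 0.154 in 5C-S. It was 0.495 and 0.453 in 5C-E, above every other library, and 0.0352 and 0.116 in 5C-F, with 14 counts in the lower one. Neither difference from 5C was called: 1.24 ± 0.53 in 5C-E (edgeR adjusted p = 0.277) and -1.25 ± 0.55 in 5C-F (edgeR adjusted p = 0.153). The 5C-E value was called in 2 of 13 alternatives, with only those groups in the fit (1.24, edgeR adjusted p = 0.041) and by unadjusted p, and the 5C-F value in 1 of 13, by unadjusted p. The difference between those removals was called, with Lgr5 5.61-fold higher in 5C-E than in 5C-F (log2 2.49 ± 0.55, edgeR adjusted p = 0.00503), and it held in both alternative fits. It was also 3.14-fold higher in 5C-E than in 5C-G (edgeR adjusted p = 0.0391), but with the GC and length offset this difference had an adjusted p of 0.17. Lgr5 and Cyp2e1 thus stood at opposite ends in 5C-E, with the highest group mean for Lgr5 and the lowest but one for Cyp2e1. The marker sums of stellate cells and fibroblasts and of endothelial cells were also highest in 5C-E. Their part in the Lgr5 values was not tested.

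The remaining members are feedback inhibitors. Axin2 (ENSMUSG00000000142, GRCm39 chr11:108811169-108841609), a scaffold of the complex that destroys beta-catenin and a common readout of Wnt signalling, was at 5.82 and 5.78 FPKM in DMSO, 4.14 and 4.27 in 5C, 4.33 and 2.18 in 5C-G, 2.63 and 2.08 in 5C-C, 5.44 and 6.20 in 5C-E, 2.63 and 3.52 in 5C-F and 4.37 in 5C-S. DMSO and 5C-E overlapped and lay above all others, and 5C-C overlapped with 5C-G and 5C-F at the low end. None of the 5 main comparisons was called, with -0.54 ± 0.24 in 5C against DMSO (edgeR adjusted p = 0.258), -0.68 ± 0.25 in 5C-C (edgeR adjusted p = 0.0397, under the fold threshold) and 0.40 ± 0.24 in 5C-E (edgeR adjusted p = 0.492). Against DMSO, Axin2 fell by 1.22 ± 0.25 in 5C-C (edgeR adjusted p = 0.00101), a call that held in all 13 alternatives. It was also lower in 5C-C than in 5C-E, by 1.07 on the log2 scale (edgeR adjusted p = 0.00393).

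Rnf43 (ENSMUSG00000034177, GRCm39 chr11:87553548-87626377) was at 1.19 and 1.14 FPKM in DMSO, 1.22 and 1.04 in 5C, 1.18 and 0.689 in 5C-C, 1.27 and 1.14 in 5C-E and 1.29 in 5C-S. It was 1.67 and 2.74 in 5C-F, above every other library, and 0.668 and 0.476 in 5C-G, below every other library. In 5C-F it rose by 1.06 ± 0.30 over 5C (edgeR adjusted p = 0.0353), and 7 of 13 alternatives lost this call. Among them were the fits without 5C library A (1.16, edgeR adjusted p = 0.149), without 5C library B (0.97, edgeR adjusted p = 0.227) and without 5C-F library B (0.71, edgeR adjusted p = 0.26). In 5C-G the value against 5C was -0.86 ± 0.31 (edgeR adjusted p = 0.0522), and with the GC and length offset it was called at -1.07 (edgeR adjusted p = 0.0125). The difference between 5C-G and 5C-F was called at -1.91 ± 0.31 (edgeR adjusted p = 0.00047) and held in both alternative fits, as did 5C-E against 5C-F (-1.03, edgeR adjusted p = 0.0276). For 5C-C against 5C-F (-1.17, edgeR adjusted p = 0.0132) the adjusted p was 0.0552 with only those groups in the fit.

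Znrf3 (ENSMUSG00000041961, GRCm39 chr11:5226324-5394939), which acts like Rnf43, was at 0.994 and 0.971 FPKM in DMSO, 1.35 and 1.42 in 5C, 1.57 and 1.45 in 5C-E, 1.41 and 1.23 in 5C-F and 0.984 in 5C-S. It was 0.768 and 0.506 in 5C-G and 0.507 and 0.756 in 5C-C, which overlapped and lay below every other library. In 5C-G it was 2.00-fold lower than in 5C (log2 -1.0003 ± 0.28, edgeR adjusted p = 0.0151), just past the fold threshold, and in 5C-C the value was -0.96 ± 0.28 (edgeR adjusted p = 0.0135), just inside it. The 5C-G call was lost in 5 of 13 alternatives, among them without 5C library A (edgeR adjusted p = 0.0623), without 5C library B (0.0722) and without 5C-G library B (0.145) and with the GC and length offset (-0.91), and the 5C-C value was called in 4 of 13. Znrf3 was also lower in 5C-G than in 5C-E (-1.05, edgeR adjusted p = 0.0153) and 5C-F (-1.03, edgeR adjusted p = 0.0214), and was below 5C-E in 5C-C (-1.01, edgeR adjusted p = 0.0128), and each of these 3 calls was lost in 1 of 2 alternative fits.

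Set against DMSO instead of 5C, the removals gave the following counts. In 5C-G, 3 of 9 members were called where 5.83% of all genes were: Cyp1a2 was higher than in DMSO (1.71), and Cyp2e1 (-3.31) and Tbx3 (-1.41) were lower. Without DMSO library A or B only Cyp2e1 remained called, without 5C-G library B Tbx3 was lost (edgeR adjusted p = 0.331), and without 5C-G library A 5 members were called, Axin2 and Rnf43 besides these 3. In 5C-C, 3 were called where 22.1% of all genes were, with Cyp2e1 (-6.61), Tbx3 (-1.97) and Axin2 (-1.22) lower than in DMSO. In 5C-E, 1 was called where 6.09% of all genes were, Cyp2e1, which was at a log2 fold change of -5.27. Lgr5 was at 1.67 there (edgeR adjusted p = 0.0665) and was called higher in 6 of 13 alternatives, and Tbx3 was at -1.35 (edgeR adjusted p = 0.055) and was called lower in 5 of 13, none of them a fit without 1 library. In 5C-F, 2 were called where 7.4% of all genes were, with Cyp1a2 higher (3.19) and Cyp2e1 lower (-1.37), the latter with an edgeR adjusted p of 0.0792 without 5C-F library B. Rnf43 was called higher there without 5C-F library A (1.21, edgeR adjusted p = 0.0378) and with the GC and length offset (1.10, edgeR adjusted p = 0.0121), and Axin2 was called lower without 5C-F library B (-1.08, edgeR adjusted p = 0.0402). These 4 comparisons share the DMSO libraries. The single 5C-S library was not tested. Its Cyp2e1 level was 3.89-fold below the 5C mean (log2 -1.96), Cyp1a2 stood at -0.50 and Znrf3 at -0.51, and the other 6 members lay between -0.33 and 0.18, whereas 18.9% of all genes were beyond a log2 fold change of 1.

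Other pericentral genes were taken as a list of 14, of which 13 were tested. In 5C against DMSO, 2 were higher and none lower, where 1.66% of all genes were called higher, and these were the P450 genes Cyp2c50 (4.54) and Cyp2c37 (2.34). In 5C-G against 5C, 7 were lower and 1 higher, where 5.64% of all genes were called lower. Cyp2c50 (-5.22), Cyp2c37 (-3.57), Ahr (-1.93), which encodes the aryl hydrocarbon receptor, and Cldn2 (-1.71), a tight junction protein, led this group. In 5C-C, where 10.5% of all genes were called lower, 8 were lower and 1 higher. The lower ones included Cyp2c50 (-6.29), Cyp2c37 (-5.31) and Gulo (-2.73), an enzyme of vitamin C synthesis. Among them was also Cyp7a1, the rate-limiting enzyme of bile acid synthesis, which had at most 3 counts in each 5C-C library. Cyp2c50 (0 and 0.12 FPKM) and Cyp2c37 (0 and 0.19 FPKM) were nearly absent there, so the size of their fold changes is uncertain. In 5C-E, where 1.31% of all genes were called lower, 5 were lower and none higher, led by Cyp2c37 (-5.05), Cyp2c50 (-4.41), Rgn (-3.46) and Gulo (-2.66). In 5C-F, where 2.69% of all genes were called higher, 3 were higher and none lower, namely Cyp2c37 (2.29), Lect2 (1.66) and Cldn2 (1.27). The list medians were 0.72, -1.56, -1.64, -1.76 and -0.12 in these 5 comparisons, where the medians of all genes lay between -0.01 and 0.01. Without Cyp7a1, which was at or under 3 counts in each library of 5C-C and of 5C-E, the medians in those removals were -1.62 and -1.32 over 12 genes. Cyp2c genes are near copies of each other, so the split of reads between Cyp2c37 and Cyp2c50 is uncertain.

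Of periportal genes, which mark the opposite zone, 15 were tested. In 5C against DMSO, 1 was higher (Hsd17b6, with at most 3 counts in each DMSO library) and 1 lower. In 5C-G against 5C, 3 were lower, led by Cps1 (-2.68), the entry enzyme of the urea cycle, and 1 was higher. In 5C-C, 2 were lower (Cps1, -2.19, and Fbp1, -1.14), and in 5C-E, 3 were lower (Cps1, -1.68, Fbp1, -1.56, and Hsd17b13, -1.34). In 5C-F, 1 was higher (Hsd17b13, 1.14) and 1 lower (Hsd17b6, with at most 3 counts in each 5C-F library). There 2.15% of all genes were called lower. Against the shares of all genes given for the pericentral list, the 2 of 15 lower in 5C-C were near the 10.5% of all genes called lower there. The medians were 0.03, -0.78, -0.54, -0.74 and 0.41, and without the gene at or under 3 counts in each 5C-C library the 5C-C median was -0.40 over 14 genes. The 10 hepatocyte markers, which are not zoned as a list, had medians of -0.03, -0.87, -0.52, -1.07 and 0.66, with 1 higher in 5C against DMSO (Serpinc1, 1.25), 1 higher and 4 lower in 5C-G, 4 lower in 5C-C, 5 lower in 5C-E and 2 higher in 5C-F. Of all genes, 5.64% were lower in 5C-G, 10.5% in 5C-C and 1.31% in 5C-E, and 2.69% were higher in 5C-F. Whether the zones differ from each other in any comparison was not tested.

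**Figure D4:**
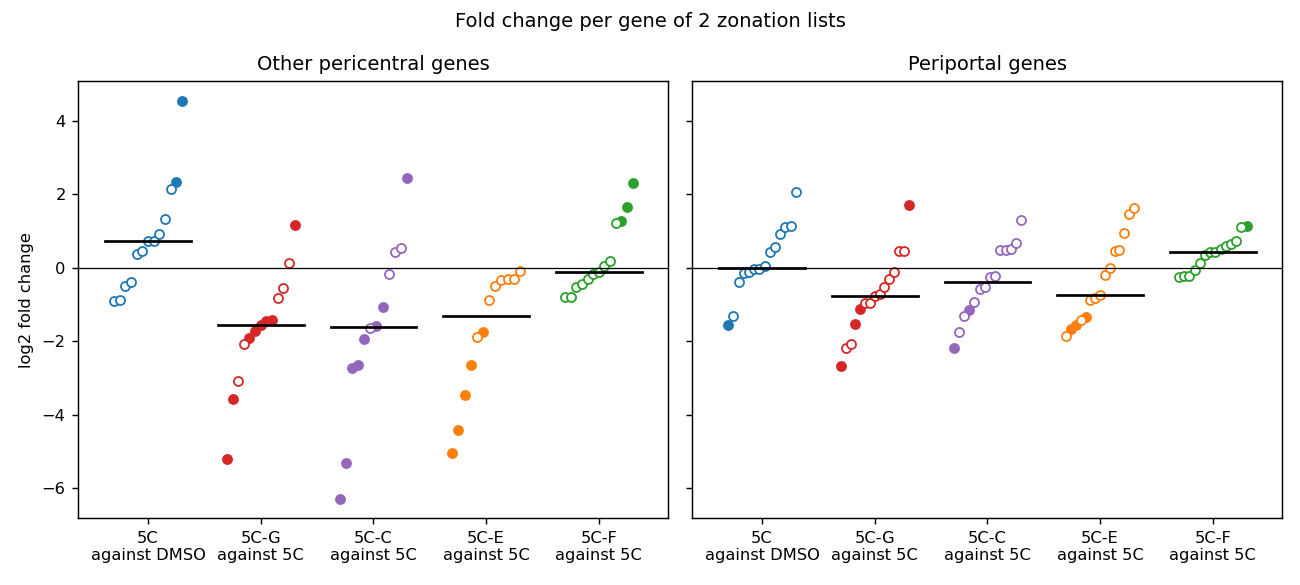
Log2 fold change of each tested gene of the lists of other pericentral genes (left) and periportal genes (right) in 5 comparisons, without genes that had at most 3 counts in each library of a group compared, with filled points for called values, open points for others and black bars for medians over the genes plotted. The lowest point is Cyp2c50 at -6.29 in 5C-C against 5C, at 0 and 0.12 FPKM in the 5C-C libraries.

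Upstream of the members, 13 Wnt ligands and R-spondins were tested. Wnt2, a ligand that liver endothelial cells use to maintain the pericentral zone, was at 14.6 and 15.4 FPKM in DMSO, 4.70 and 4.07 in 5C and 11.01 and 12.5 in 5C-G, and at 4.70 to 6.69 in the other groups. It fell by 1.85 ± 0.24 in 5C against DMSO (edgeR adjusted p = 5.87e-05) and rose by 1.56 ± 0.24 in 5C-G against 5C (edgeR adjusted p = 0.000215). Of the macrophage markers, 7 of 8 were lower in 5C than in DMSO and 7 of 8 higher in 5C-G than in 5C, in the same libraries, where 2.89% and 7.47% of all genes were called in those directions. They were also higher than in 5C in 5C-F (7 of 8, list median 1.87, beside 2.69% of all genes) and in 5C-C (4 of 8, list median 1.499, beside 9.65%), where Wnt2 was not called, at 0.61 ± 0.24 in 5C-F (edgeR adjusted p = 0.106) and 0.47 ± 0.24 in 5C-C (edgeR adjusted p = 0.14). In 5C-E edgeR and DESeq2 called 0 of the 8, with 3 at an unadjusted edgeR p under 0.05, where edgeR called 1.96% of all genes. The part of the macrophage markers in the Wnt2 values was not tested. The non-canonical ligand Wnt5a was lower than in 5C without GSK429286A (-1.03), CID755673 (-1.18) or forskolin (-1.31), and Wnt4 was higher without CID755673 (2.16). Without forskolin, Wnt10a was higher (3.03) and Wnt2b lower (-1.21). Without ETC-1002 none of the 13 was called by edgeR or DESeq2, with 1 at an unadjusted edgeR p under 0.05. Of the 13, edgeR called 1 in 5C against DMSO, 2 in 5C-G, 2 in 5C-C and 3 in 5C-F against 5C. Beside these, 4.55%, 13.1%, 20.2% and 4.84% of all genes were called, and 1.96% in 5C-E. Rspo3, the R-spondin of the central vein, was at 2.47 and 2.93 FPKM in DMSO and 4.32 and 5.41 in 5C and was called in none of the 5 comparisons.

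Of 16 Wnt receptors and co-receptors, edgeR and DESeq2 called 0 in 5C against DMSO and 0 in 5C-E against 5C. In each, 3 were at an unadjusted edgeR p under 0.05. Of all genes, 4.55% and 1.96% were called there, so a 0 in a list this short says little. The R-spondin receptor Lgr4 was at 5.13 and 4.86 FPKM in 5C, and at 2.41 and 1.45 in 5C-G and 2.64 and 1.75 in 5C-C. It fell by 1.26 ± 0.25 in 5C-G (edgeR adjusted p = 0.0017) and by 1.03 ± 0.25 in 5C-C (edgeR adjusted p = 0.00392). In 5C-G, Lgr4 was the only 1 of the 16 called, where 13.1% of all genes were. In 5C-C the co-receptor Lrp6 (-1.37) and the receptor Fzd5 (-1.11) were lower and Fzd2 (1.08) was higher. DESeq2 called 3 of the 16 in 5C-C, where edgeR called 4. In 5C-F Ror2 was lower (-1.85), the only 1 of the 16 called, where 4.84% of all genes were. Of 18 intracellular genes of the pathway, Ctnnb1, which encodes beta-catenin itself, fell by 1.14 ± 0.28 in 5C-C (edgeR adjusted p = 0.00401). It was at 90.9 and 87.9 FPKM in 5C and at 48.7 and 24.0 in 5C-C. Apc (-1.64) and Gsk3b (-1.05) of the complex that destroys beta-catenin fell along with it. These 3 of 18, and 4 of the 16 receptors, were called in a comparison where 20.2% of all genes were. Their calls were not checked with the GC and length offset or with libraries left out. Lef1 was lower in 5C-G (-1.36), the only 1 of the 18 called, where 13.1% of all genes were. In 5C against DMSO, 5C-E and 5C-F, edgeR and DESeq2 called 0 of the 18, with 1, 3 and 4 at an unadjusted edgeR p under 0.05. Of all genes, 4.55%, 1.96% and 4.84% were called there. The secreted inhibitor Sfrp1 was higher without CID755673 (1.65) and without ETC-1002 (1.59) and lower without forskolin (-1.61). Sfrp4 was higher without GSK429286A (3.21), but at low levels, with 0.0285 and 0.0623 FPKM in 5C and 0.498 and 0.288 in 5C-G. In 5C against DMSO edgeR called 0 of the 11 inhibitors tested and DESeq2 called 1, with 4 at an unadjusted edgeR p under 0.05.

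Of 12 other beta-catenin target genes, 1 was higher and 1 lower in 5C against DMSO, where 4.55% of all genes were called. These were Tnfrsf19 (1.20), a receptor of the tumour necrosis factor family, and the transcription factor Ascl2 (-3.17). Their values were -1.93 and 4.37 in 5C-G against 5C and -1.06 and 2.85 in 5C-C against 5C, all called, in comparisons that share the 5C libraries with the first. The 2 of 12 called in 5C-C stood beside 20.2% of all genes, and the 3 of 12 in 5C-G, Lef1 included, beside 13.1%. In 5C-F against 5C, where 4.84% of all genes were called, Ascl2 was higher (1.92 ± 0.59, edgeR adjusted p = 0.0461). Apcdd1, an inhibitor of Wnt signalling at the membrane, was lower (-1.02). DESeq2 called 1 of the 12 there, where edgeR called 2. In these 4 comparisons Ascl2 had the sign of the called macrophage markers, whose part in its values was not tested. In 5C-E, edgeR and DESeq2 called 0 of the 12, with 2 at an unadjusted edgeR p under 0.05, where edgeR called 1.96% of all genes. Of 5 aryl hydrocarbon receptor targets besides Cyp1a2, Nqo1 (1.52) was higher and Cyp1b1 (-1.34) lower in 5C against DMSO, beside 4.55% of all genes. Tiparp was lower in 5C-C against 5C (-1.19), beside 20.2% of all genes. In the other 3 comparisons edgeR and DESeq2 called 0, with 1 at an unadjusted edgeR p under 0.05 in 5C-G, 0 in 5C-E and 2 in 5C-F. Of all genes, 13.1%, 1.96% and 4.84% were called there. Cyp1a1, the gene most often used to follow this receptor, was at 0 to 0.282 FPKM in all libraries.

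The genes whose levels followed each member most closely over the 13 libraries, by Pearson r on log2 CPM, are given as a description, since libraries of a group and depth are shared by all points. For Cyp2e1 they were Gm4788 (0.975), Fmo1 (0.972), a flavin monooxygenase of drug metabolism, and Ppp1r3a (0.971). For Cyp1a2 they were the carboxylesterases Ces1g (0.954) and Ces1c (0.953) and the gene Gm5096 (0.945). For Tbx3 they included Acsl1 (0.936), an enzyme of fatty acid activation, and Kcnj16 (0.932). Rnf43 was closest to Hnf4a (0.944), a master transcription factor of hepatocytes, and then to Ngef (0.941) and Acox2 (0.94). Axin2 was closest to Tet3 (0.984), Baz2a (0.975) and Dcaf5 (0.974), Lgr5 to Tert (0.937), E530011L22Rik (0.935) and Vdr (0.916), and Znrf3 to Gpm6b (0.932), Dph6 (0.918) and Ipp (0.916). Glul was closest to Zdhhc2 (0.974), Ifi209 (0.972) and Etv1 (0.968), and Oat to 2210408I21Rik (0.966), Lhfp (0.94) and Mastl (0.913). Among the members themselves the highest r was 0.841, between Cyp2e1 and Tbx3, and the lowest was -0.649, between Oat and Rnf43.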

How the data were processed

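The authors sequenced paired-end libraries and deposited whole-number counts and FPKM, 1 table of each, with a row per gene. The submitters' processing notes name GRCm39, featureCounts, Subread and DESeq2. The aligner is not stated beyond the name Subread, and annotation and strand handling are not given in the sources used here. Reads of members with overlapping neighbours (Glul with Teddm2, Tbx3 with Tbx3os1, Axin2 with Gm11670) therefore cannot be told apart from theirs. Those neighbours had 158, 37 and 15 counts over all libraries. The same holds for Lgr5 with Gm66839 (749 exon bases shared) and Rnf43 with Gm73763 (530), neighbours that were not analysed here. The deposited FPKM equal the authors' counts over 1 length per gene and the column total, within 0.2% for 27140 genes. No column of per-sample values was left unused (0). Columns name a group but not a sample, so libraries A and B of a group pair nothing across groups.

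Counts were tested with edgeR 4.0.16 in R 4.3.3 (TMM factors, filterByExpr with minimum count 10, glmQLFit and glmQLFTest, Benjamini-Hochberg adjustment over 19884 genes). All 13 libraries entered 1 fit of group means with 6 residual degrees of freedom and a common biological coefficient of variation of 0.261. FPKM means are over 2 libraries, and totals ran from 30195867 to 45491932 counts. Errors are SEs taken as the absolute log2 fold change over the square root of the quasi-likelihood F. They hold a spread between libraries that edgeR moderates over genes, not the spread of a gene's own libraries alone. Floors (3 counts) cover counting error only. The study's methods call replicates separate biological ones. The labels tie no library to an animal or culture, so p-values measure the spread between these libraries. Scripts were tested on simulated data.

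Alternatives were total counts only, DESeq2 1.42.0, limma 3.58.1 on log2(FPKM + 1) and log2(FPKM + 0.1), every gene with a count, at least 10 counts in every library, only the 2 groups compared, unadjusted p, an offset for GC content and length (mgcv 1.9.3, with a GC value for 99.5% of tested genes) and each library left out. This made 13 alternatives per comparison, and 2 for pairs of removals. Named genes were all 9 members, up to 4 called genes of each of 13 lists with the largest fold change, and the 3 genes most like each member. Some genes that this rule names are not reported here. Rspo3, Cyp1a1, Pecam1 and Cdh5 were named after their values were seen. Of the 153 list genes, 148 were matched, and Wnt1, Wnt3a, Wnt9b, Rspo4 and Clec4g were not analysed here. The members and lists were chosen with earlier results of these data known. Gene positions are from GENCODE on GRCm39.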

Additional observations from a re-analysis of the deposited data

How the results depend on the processing

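Cyp2e1 in 5C-G, 5C-C and 5C-E against 5C and Cyp1a2 in 5C against DMSO and in 5C-C and 5C-E against 5C kept direction and call in all 13 alternatives. Over the 5 main comparisons and the differences called against DMSO or between removals, members had 750 values under an alternative, of which 663 kept both, 37 lost a call, 13 gained one and 37 changed sign, the last all of differences that were not called. Of 351 values of members not called against DMSO, 20 gained a call and 15 changed sign, and of 60 between removals, 1 and 4. The cause of these changes was not tested. Total counts only moved the median of all genes by -0.13 in 5C-G against 5C, -0.163 in 5C-C against 5C and 0.145 in 5C-E against DMSO. The lowest count behind a member was 14, for Lgr5 in 5C-F A, and Cyp1a2 had 20 in 5C-C A. No paired analysis was possible because the labels give groups no replicate number in common and the running numbers in the column names are tied to no sample.

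Members called moved from 4 to 2 in 5C-G against 5C with limma on log2(FPKM + 1) (1 to 4 leaving out a library), from 2 to 4 in 5C-E against 5C with only the 2 groups compared and with unadjusted p, and from 3 to 1 in 5C-G against DMSO with limma on log2(FPKM + 1) (1 to 5 leaving out a library). In 5C-F against 5C the 1 call became 0 with total counts only, limma on either scale and the offset, and 2 with unadjusted p (0 to 1 leaving out a library). Beside this 0, unadjusted p gave the 2 above and DESeq2 gave 1. In 5C-E against DMSO the 1 call became 2 with total counts only, at least 10 counts in every library and the offset, and 3 with DESeq2, every gene with a count, only the 2 groups compared and unadjusted p.

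Over all genes, limma on log2(FPKM + 1) called 569 for 905 in 5C against DMSO, 1376 for 2607 in 5C-G, 2318 for 4011 in 5C-C, 217 for 390 in 5C-E and 341 for 962 in 5C-F against 5C, and 372 for 1160, 2490 for 4391, 729 for 1210 and 760 for 1472 in those removals against DMSO. On log2(FPKM + 0.1) it called 619 in 5C-F against 5C and 673 in 5C-G against DMSO. Unadjusted p gave 1532 in 5C against DMSO, 877 in 5C-E and 1672 in 5C-F against 5C, and only the 2 groups compared gave 1371 in 5C against DMSO and 642 in 5C-E against 5C. The offset gave 2167 in 5C-C against 5C, and 658 in 5C-G and 2909 in 5C-C against DMSO. Without 5C-G library A or B the count was 3945 or 1395 in 5C-G against 5C and 2722 or 260 in 5C-G against DMSO. Other libraries left out gave as few as 138 in 5C-E against 5C (5C-E B), 294 in 5C-F against 5C (5C B), 217 in 5C-G (DMSO A), 801 in 5C-E (5C-E B) and 784 in 5C-F against DMSO (DMSO A).

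Signs changed as follows. With the offset, values were 0.11 for Rnf43 in 5C against DMSO, 0.15 for Lgr5 in 5C-G against 5C, 0.25 for Oat, -0.27 for Rnf43 and -0.094 for Znrf3 in 5C-E against 5C, and -0.10 for Cyp1a2 in 5C-F against 5C. With total counts only, limma on log2(FPKM + 1) and limma on log2(FPKM + 0.1), in that order, Oat was -0.13, -0.14 and -0.14 and Lgr5 -0.12, -0.017 and -0.056 in 5C-C against 5C, Oat was 0.0369, 0.0372 and 0.0374 in 5C-E against 5C, and Znrf3 was -0.068, -0.041 and -0.067 and Glul -0.0014, -0.0010 and -0.0010 in 5C-F against 5C. Leaving out a library in turn, values ran from -0.21 to 0.56 for Tbx3 in 5C against DMSO and from -0.72 to 0.085 for Axin2 in 5C-G against 5C. In 5C-C against 5C they ran from -0.048 to 0.13 for Oat, from -0.22 to 0.43 for Lgr5 and from -0.50 to 0.21 for Rnf43. In 5C-E against 5C they ran from -0.17 to 0.0091 for Glul, from -0.11 to 0.073 for Oat, from -0.033 to 0.13 for Rnf43 and from -0.00020 to 0.14 for Znrf3. In 5C-F against 5C they ran from -0.0043 to 0.45 for Cyp1a2, from -0.10 to 0.46 for Tbx3 and from -0.11 to 0.17 for Znrf3.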
